A study of Homo sapiens with 6 samples.

Results

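The genes described are 9 intermediate filament genes of epithelial cells in culture, namely the type II keratins KRT7, KRT8, KRT80, KRT81 and KRT86, the type I keratins KRT18 and KRT19, vimentin (VIM) and nestin (NES). They were chosen by name, and each symbol matched exactly 1 of the 33496 genes listed. RNA-seq was performed on 6 libraries of ARPE-19, an established human retinal pigment epithelium (RPE) cell line, so all libraries stand for a single line. All cells received erastin (5 μM, 24 h), an inhibitor of cystine uptake that leads to ferroptosis, an iron-dependent cell death with lipid peroxidation. Of the libraries, 3 had erastin alone (Era) and 3 had vitamin K1 (VK1, 10 μM) added 1 h ahead of erastin (Era+VK). No culture without erastin was analysed here, and the comparison asks what VK1 pretreatment changed in erastin-treated cells. Values are FPKM (fragments counted per kilobase of a transcript and relative to all mapped fragments), which are per length and can be compared between genes.

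Intermediate filaments give cells resistance to stretch. Keratins are obligate heteropolymers of a type I and a type II chain, and KRT8 with KRT18 is the first pair of simple, single-layered epithelia, to which KRT7 and KRT19 are added in many ducts and linings. KRT80 is a type II keratin tied to cell junctions and differentiation, and KRT81 and KRT86 are type II keratins of the hair shaft. Vimentin is the filament of mesenchymal cells and builds homopolymers, and nestin is the large filament protein of progenitor cells that needs vimentin to assemble. RPE cells hold KRT8 and KRT18, and in culture they commonly hold vimentin as well.

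The members differ in how alike their sequences are, and so in how far their reads could be confused. Over the whole coding sequence of the GENCODE 29 transcripts (GRCh38), the identity was 89.6% between the hair keratins KRT81 and KRT86 and 68.1% between the type II keratins KRT7 and KRT8. It was 46.5% between the partners KRT8 and KRT18 and 52.0% between VIM and KRT8, so KRT8 was nearer to vimentin than to its own partner by this measure.

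Of the 9 genes, 6 lie within 784 kb of chromosome 12 (52168996 to 52952901, GRCh38, GENCODE 29), the 5 type II genes and KRT18, which is the only type I member in this cluster. VIM lies on chromosome 10 (17228259 to 17237593), KRT19 on chromosome 17 (41523617 to 41528308) and NES on chromosome 1 (156668763 to 156677397). KRT8 and KRT18 overlap by 1084 bases on opposite strands. KRT81 lies wholly inside KRT86, on the opposite strand. KRT7 and KRT86 overlap by 2887 bases on the same strand. Of the 150-base windows along each main transcript, 25.62% of those of KRT81 occur in KRT86 on either strand, and 24.77% of those of VIM occur in its antisense gene VIM-AS1. The share was 22.05% for KRT86 (with KRT81), 10.97% for KRT18 (with KRT8), 4.8% for KRT7 (with KRT7-AS) and 0 for KRT8, KRT80, KRT19 and NES. The 0 of KRT8 holds for its main transcript only, since the shared windows of KRT18 occur in other KRT8 transcripts. The strand setting of the counting is not given in the sources used here.

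Between 24143 and 24601 genes per library were above 0, and mitochondrially encoded genes held 15.979% to 18.51% of the FPKM. Era+VK replicates 2 and 3 stood apart from the other libraries by transcripts of erythroid cells. The summed level of 15 erythroid markers was 241 and 234 FPKM there against 0.31 to 0.63 FPKM in the other 4 libraries. The log2 difference of each abundant member is therefore also given for Era+VK replicate 1 alone. Of the RPE markers (12 of 13 in the files), OTX2 (27.5 to 31.4 FPKM) and MITF were present. MITF was 15.5 to 15.8 FPKM in Era and 16.8 to 18.6 FPKM in Era+VK (limma adjusted p = 0.151). PMEL was 1.07 to 1.42 FPKM. RPE65 reached at most 0.02 FPKM and TYR at most 0.17 FPKM, and SERPINF1, LRAT, TYRP1, MERTK, RLBP1 and DCT stayed under 1 FPKM in every library. BEST1, another RPE marker, varied between libraries of the same group, at 2.65, 0.65 and 57.0 FPKM in the Era and 36.5, 0.60 and 4.80 FPKM in the Era+VK libraries. Of the fibroblast and smooth muscle markers (6 in the files, summing to 38.8 to 55.0 FPKM), PDGFRB was 25.2 to 29.01 FPKM in Era and 32.3 to 40.9 FPKM in Era+VK and ACTA2 12.6 to 13.3 FPKM, while DCN and LUM were at 0, and the part of these in the results was not tested. The 6 endothelial markers summed to at most 1.27 FPKM. Of the stratified epithelium markers (3 of 7 in the files), KRT16 and TP63 reached at most 0.04 FPKM, while KRT5 and KRT14 were not in the files. KRT10 was 1.95 to 3.09 FPKM and higher in every Era+VK library (limma adjusted p = 0.182). Of the 5 epithelial junction markers, CDH1 reached at most 0.04 FPKM and EPCAM at most 0.14 FPKM. CLDN4 ranged from 0.55 to 0.9 FPKM and OCLN from 1.25 to 2.0 FPKM, and both overlapped between the groups. CLDN1 ranged from 3.09 to 3.75 FPKM with erastin alone and from 1.81 to 2.45 FPKM after VK1 pretreatment. It was thus lower in every Era+VK library, with a log2 difference of -0.56 (limma adjusted p = 0.055). The labels do not say that the libraries of a group came from separate cultures, so p-values measure the spread between these libraries, which may be technical.

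VIM, KRT7, KRT18, KRT8 and KRT80 were abundant, and the other 4 genes were low, with means of 3.04 FPKM or less. Averaged over the 6 libraries, the level was 853 FPKM for VIM, 428 FPKM for KRT7, 229 FPKM for KRT18, 191 FPKM for KRT8 and 76.1 FPKM for KRT80. This order held in 6 of 6 libraries for each of these neighbours, and the closest were KRT18 and KRT8, with a ratio of 1.09 to 1.32. VIM ranked 22nd and KRT7 38th among the 11981 genes whose mean reached 1 FPKM. Below them came KRT81 (3.04 FPKM), KRT86 (1.43 FPKM) and KRT19 (1.16 FPKM), whose order was not stable: KRT81 exceeded KRT86 in 5 of 6 libraries, and KRT86 exceeded KRT19 in 4 of 6. NES averaged 0.085 FPKM and was the lowest of the 9 in all 6 libraries. The name of the set as filaments of cultured RPE therefore fits VIM and 4 keratins, while NES was close to 0 in this line.

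**Figure D1:**
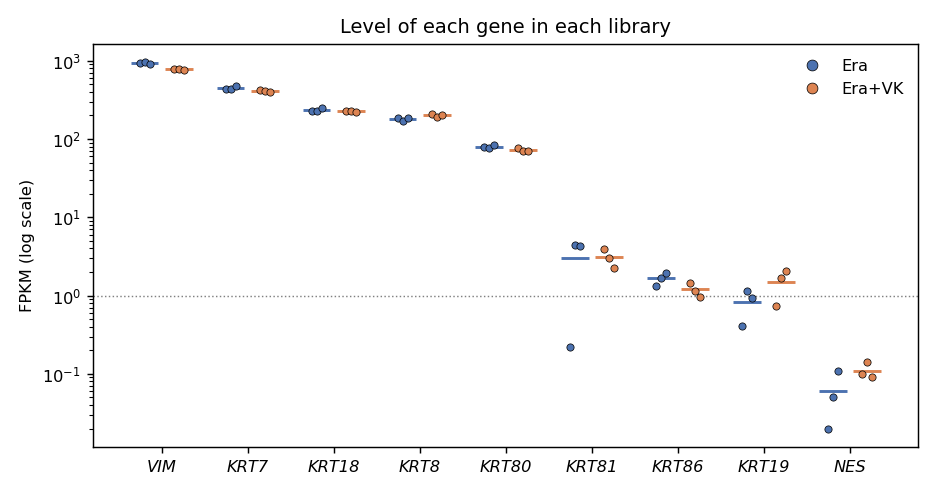
FPKM of each of the 9 genes (log scale) in the 3 Era (blue) and 3 Era+VK (orange) libraries, replicates 1 to 3 from left to right, with the group mean as a line and 1 FPKM dotted. VIM to KRT80 lie above 70 FPKM in every library, and NES lies at or below 0.14 FPKM.

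Vimentin was the member with the clearest difference. VIM measured 942, 952 and 911 FPKM in the Era and 771, 792 and 750 FPKM in the Era+VK libraries. The Era+VK values all lay below the lowest Era value, with a gap larger than the range of either group. The means were 935 ± 21.3 FPKM and 771 ± 21.0 FPKM (SD, n = 3 each), a difference of -17.5% with VK1. On the log2(FPKM + 1) scale the difference was -0.28 ± 0.05 (SE), with a 95% confidence interval of -0.40 to -0.16. In limma across 11981 genes the unadjusted p was 0.000639 and the Benjamini-Hochberg adjusted p 0.0644, so VIM missed the threshold of 0.05. It passed in limma without Era+VK replicate 2 (adjusted p = 0.043), when values were rescaled without mitochondrially encoded genes (0.0417) and when libraries were scaled to the same median (0.0411). It did not pass when each of the other 5 libraries was left out (0.169 to 0.26) or with no filter on low values (0.431). With quantile normalization, which keeps only a gene's place in each library, the difference was -0.08 (limma adjusted p = 0.578), since VIM held place 21 to 23 in every library. Era+VK replicate 1, which lacks the erythroid transcripts, gave the same difference of -0.28 against Era when used alone.

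The most abundant genes as a group also had lower values in Era+VK, and the part of this in the vimentin value was not tested. The median log2 difference was -0.07 over the 67 genes whose mean reached 300 FPKM and 0.03 over the 11981 genes tested. Of these 67 genes, the 5th percentile was -0.27, and only MT-TL1, a mitochondrial transfer RNA gene, had a lower value (-0.32) than VIM. VIM-AS1, the antisense gene that shares sequence with VIM, had 11.8, 7.27 and 5.03 FPKM in the Era and 11.9, 9.79 and 13.5 FPKM in the Era+VK libraries. Its groups overlapped, and its level was 0.552% to 1.8% of that of VIM. As these are bulk samples, fewer cells with a transcript and less of it per cell cannot be told apart.

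**Figure D2:**
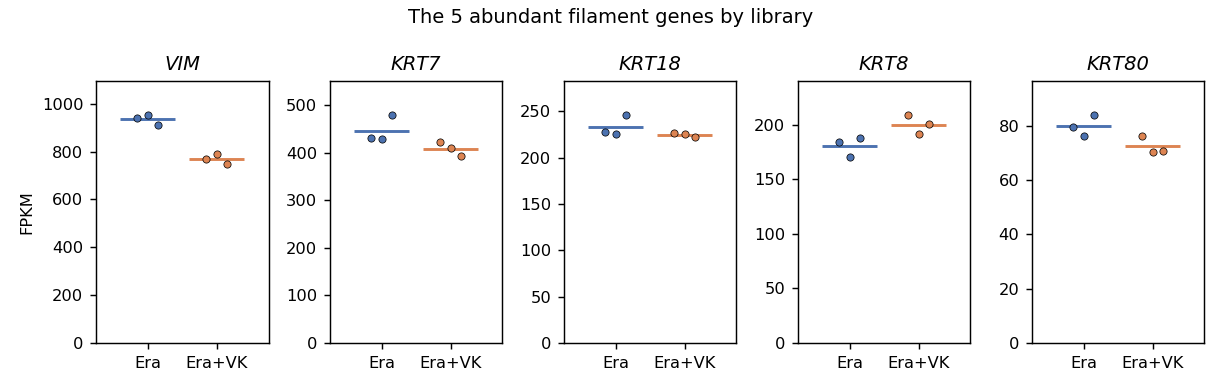
FPKM of the 5 abundant genes in each library on axes that start at 0 (blue Era, orange Era+VK, replicates 1 to 3 from left to right, line at the mean of 3). VIM, KRT7 and KRT80 are lower in all 3 Era+VK libraries, KRT8 is higher in all 3, and KRT18 overlaps.

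In the primary keratin pair of simple epithelia, KRT8 was higher in every Era+VK library whereas KRT18 overlapped between the groups. KRT8 measured 185, 171 and 188 FPKM in the Era and 209, 192 and 200 FPKM in the Era+VK libraries. All 3 Era+VK libraries lay above the 3 Era libraries, by a gap smaller than the range of either group. The means were 181 ± 8.95 and 200.2 ± 8.66 FPKM (SD, n = 3 each), with a log2 difference of 0.15 ± 0.06 (SE) and a limma adjusted p of 0.27. KRT8 was the only abundant member with a higher mean in Era+VK, a direction it kept in all 15 alternative analyses, although its groups overlapped when values were rescaled without mitochondrially encoded genes, scaled to the same median or quantile normalized. In Era+VK replicate 1 alone the log2 difference was 0.21.

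KRT18, the type I partner, measured 228, 226 and 246 FPKM in the Era and 227, 226 and 222 FPKM in the Era+VK libraries. The groups overlapped, and Era replicate 3 was the highest library. The log2 difference was -0.05, with a 95% interval of -0.16 to 0.06 (limma adjusted p = 0.642), which corresponds to a change between -10.8% and 4.27% in FPKM + 1. When libraries were scaled to the same median the difference was -0.10 and the groups no longer overlapped (adjusted p = 0.413), and without Era replicate 3 it was -0.014. In Era+VK replicate 1 alone it was -0.04.

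KRT7, the further type II keratin of simple epithelia, measured 432, 430 and 479 FPKM in the Era and 422, 411 and 393 FPKM in the Era+VK libraries. Each Era+VK library was below each Era library, but Era+VK replicate 1 lay just below Era replicate 2. The log2 difference was -0.13 ± 0.06 (SE, limma adjusted p = 0.35). KRT7-AS, an antisense gene at the same locus, had a mean of 15.7 ± 1.74 FPKM in the Era and 16.3 ± 0.775 FPKM in the Era+VK libraries (SD, n = 3 each). The difference for KRT7 was -0.08 without Era replicate 3, and also -0.08 for Era+VK replicate 1 alone.

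KRT80 measured 79.5, 76.3 and 83.8 FPKM in the Era and 76.0, 70.3 and 70.7 FPKM in the Era+VK libraries. The groups were separate, with Era+VK replicate 1 just under Era replicate 2, and they overlapped when values were rescaled without mitochondrially encoded genes. The log2 difference was -0.14 ± 0.05 (SE, limma adjusted p = 0.261), and -0.07 for Era+VK replicate 1 alone.

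The hair keratins KRT81 and KRT86 were low, and 1 library decided the direction of KRT81. KRT81 measured 0.22, 4.44 and 4.34 FPKM in the Era and 3.98, 3.0 and 2.28 FPKM in the Era+VK libraries. Era replicate 1 stood apart at 0.22 FPKM, under 10% of every other library, a pattern seen there for 4 of the 11981 genes tested. With all libraries the log2 difference was 0.29 with a 95% interval of -0.94 to 1.53 (limma adjusted p = 0.83), and without Era replicate 1 it was -0.42 (0.356). It was 0.66, 0.65, 0.14 and 0.44 without Era replicate 2, Era replicate 3, Era+VK replicate 1 and Era+VK replicate 3, and 0.74 with a pseudocount of 0.1. KRT86 measured 1.33, 1.70 and 1.94 FPKM in the Era and 1.46, 1.16 and 0.97 FPKM in the Era+VK libraries. Its groups overlapped and its log2 difference was -0.27 ± 0.11 (SE, limma adjusted p = 0.306), or -0.44 with a pseudocount of 0.1. Since a read from the shared sequence could be assigned to either gene, their sum was also taken: 1.55, 6.14 and 6.28 FPKM in the Era and 5.44, 4.16 and 3.25 FPKM in the Era+VK libraries. The sum also overlapped, and Era replicate 1 remained the lowest.

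KRT19, the smallest keratin and a type I chain without a usual tail, measured 0.41, 1.16 and 0.93 FPKM in the Era and 0.74, 1.68 and 2.06 FPKM in the Era+VK libraries. The groups overlapped, and the 2 highest values were those of the libraries with erythroid transcripts, whose part in this value was not tested. The log2 difference was 0.43 ± 0.23 (SE, limma adjusted p = 0.413). It was 0.25 without Era replicate 1, 0.67 without Era+VK replicate 1 and 0.76 with a pseudocount of 0.1. NES measured 0.02, 0.05 and 0.11 FPKM in the Era and 0.10, 0.14 and 0.09 FPKM in the Era+VK libraries, and it was not tested because its mean was under 1 FPKM.

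Of the 9 genes, 8 passed the minimum and 0 of these had an adjusted p under 0.05 in limma, where 0.618% of all genes tested did (74 genes, 16 higher and 58 lower, or 11 higher and 124 lower when scaled to the same median). At an unadjusted p under 0.05 there were 4 of the 8 (VIM, KRT80, KRT8 and KRT86), against 15.8% of all genes tested. The groups did not overlap for 4 of the 8, against 22.1% of all genes tested. They were lower in every Era+VK library for 3 (VIM, KRT7 and KRT80; background 7.04%) and higher for 1 (KRT8; background 15.1%). An exact permutation test of a single gene with 3 libraries a group cannot give a two-sided p below 0.1, which these 4 genes reached. The median log2 difference of the 8 was -0.09, against 0.03 over all genes tested.

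**Figure D3:**
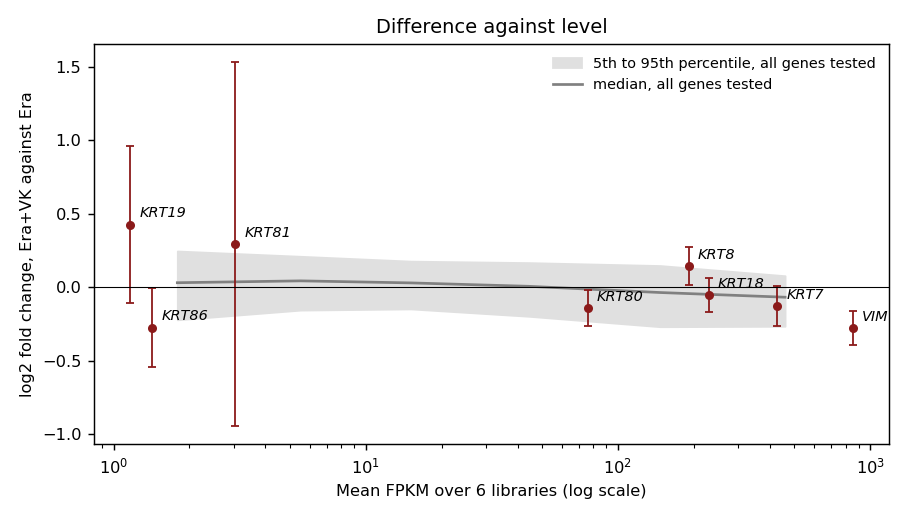
Log2 fold change of the 8 genes tested (Era+VK against Era, limma, with 95% confidence intervals) against their mean FPKM (log scale), over the median (line) and the 5th to 95th percentile (grey) of all 11981 genes tested in 6 ranges of level. VIM lies lower than the band at its right end, and KRT86 lower than the band at its left end. KRT19 and KRT81 lie above the band and KRT8 near its upper edge. The intervals of KRT81 and KRT19 are the widest.

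A ratio of FPKM within a library does not depend on any factor by which that library is multiplied. VIM to KRT18 was 4.13, 4.22 and 3.71 in Era and 3.40, 3.51 and 3.38 in Era+VK. The groups did not overlap, and the mean ratio differed by -14.6% with VK1 (-17.8% to -12.4% when each library was left out in turn). The type II members summed to 3.04 ± 0.0283 times the type I members in Era and 3.03 ± 0.0881 times in Era+VK (SD, n = 3 each), and these groups overlapped. The mean of this balance differed by -0.449% between the groups, and it covers the members only. The 28 other keratins, counted in neither sum, held 85.9, 86.1 and 97.6 FPKM in the Era and 42.0, 44.6 and 43.6 FPKM in the Era+VK libraries. KRT33B and KRT34, the highest of them, are type I, and the balance over all keratins was not tested.

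Within the type II side, KRT8 and KRT7 differed in opposite directions, a comparison chosen after the values were seen. KRT8 to KRT18 was 0.809, 0.757 and 0.763 in Era and 0.921, 0.849 and 0.903 in Era+VK, a mean 14.8% higher with groups that did not overlap. KRT7 to KRT8 was 2.34, 2.52 and 2.56 in Era and 2.02, 2.15 and 1.96 in Era+VK, again without overlap. KRT7 to KRT18 and KRT80 to KRT18 were lower in all 3 Era+VK libraries, with differences of -5.1% and -6.02% of the mean. For comparison, 24.9% of the other genes tested had a ratio to KRT18 whose groups did not overlap, and these ratios share KRT18 or KRT8, so they are not independent of each other.

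**Figure D4:**
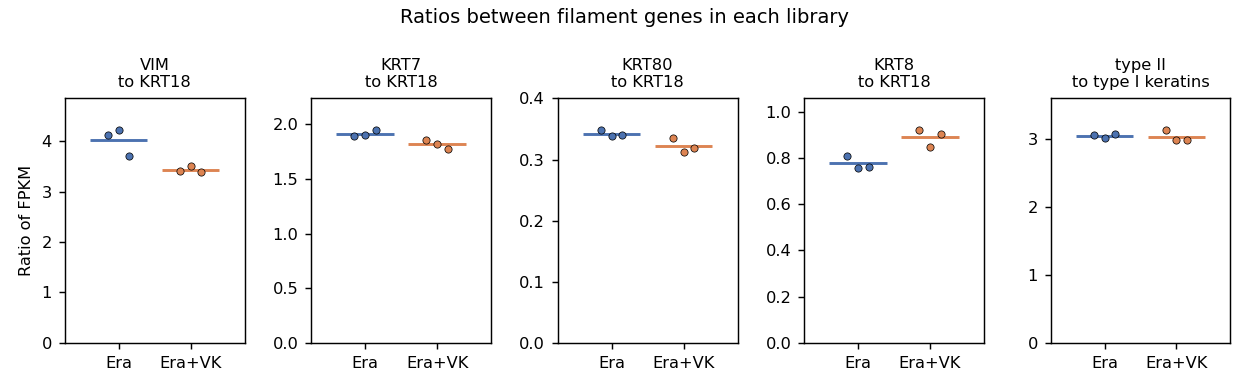
Ratios of FPKM in each library (blue Era, orange Era+VK, line at the mean of 3, axes from 0). VIM, KRT7 and KRT80 relative to KRT18 are lower in all 3 Era+VK libraries, and KRT8 relative to KRT18 is higher in all 3. The sum of type II over the sum of type I, taken over the members only, stays near 3.

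The members together held 0.792% to 0.805% of the FPKM in Era and 0.713% to 0.749% in Era+VK. The keratin members alone summed to 926, 909.5 and 1003 FPKM in the Era and 939, 904 and 891 FPKM in the Era+VK libraries, which overlapped. Vimentin accounted for most of the difference in the total. Processed copies of these genes carried little of the signal. The 26 KRT8 copies summed to 4.43 to 5.26 FPKM, at most 2.79% of KRT8, and the 25 KRT18 copies summed to 0.67 to 0.95 FPKM.

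The keratins that passed the test were not among the members. Of 28 other keratin genes in the files, 7 were tested. At a limma adjusted p under 0.05, 4 were lower in Era+VK and 0 higher, against 0.618% of all genes tested in either direction. All 4 are type I keratins: KRT34 (33.5 ± 3.47 to 12.9 ± 1.5 FPKM, SD, n = 3, limma adjusted p = 0.00812), KRT33B (35.3 to 14.5 FPKM, 0.01) and KRT31 (3.20 to 1.54 FPKM, 0.02) of the hair shaft, and KRT13 (8.11 to 4.65 FPKM, 0.0331) of internal stratified epithelia. KRT10, the type I keratin of suprabasal epidermis, was 2.15 FPKM in the Era and 2.87 FPKM in the Era+VK libraries (adjusted p = 0.182). KRT32, a type I hair keratin, was 3.92 FPKM in the Era and 4.36 FPKM in the Era+VK libraries (limma adjusted p = 0.623), with groups that overlapped. The remaining keratin tested was the pseudogene KRT87P, so being type I does not set the 4 apart. Of the 4, 1 (KRT34) passed without Era replicate 1, 1 (KRT33B) without Era replicate 2, 2 (KRT33B and KRT34) without Era replicate 3 or Era+VK replicate 3, 3 without Era+VK replicate 1 and all 4 without Era+VK replicate 2. The median of the 7 was -0.70 on the log2 scale, against 0.03 over all genes tested.

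Among 12 other intermediate filament genes, 4 were tested and 0 passed (2 at an unadjusted p under 0.05), with a median log2 difference of 0.05. LMNA, which encodes the A-type lamins of the nuclear lamina, was 53.0 FPKM in the Era and 47.1 FPKM in the Era+VK libraries (limma adjusted p = 0.113), and its groups did not overlap. SYNM, the filament protein synemin that joins vimentin polymers, was 4.19 FPKM in the Era and 5.45 FPKM in the Era+VK libraries (adjusted p = 0.0552), opposite in direction to VIM. LMNB2 and LMNB1 overlapped between groups. DES, GFAP, PRPH, INA, NEFL, NEFM and NEFH reached at most 0.20 FPKM in any library, so VIM was the only type III filament gene at a substantial level.

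Of the 22 plakins and filament anchors, 17 were tested, and 0 passed at an adjusted p under 0.05 or at an unadjusted p under 0.05. Their median log2 difference was 0.03, equal to that of all genes tested. PLEC, which encodes plectin, the linker of filaments to the membrane and to actin, was 71.95 FPKM in the Era and 67.6 FPKM in the Era+VK libraries, with 57.3 FPKM in Era+VK replicate 2 alone. The next by mean level were PKP4 (25.5 and 26.1 FPKM) and the hemidesmosome integrin ITGA6 (20.1 and 20.8 FPKM).

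Of 29 tested actin, myosin and tubulin genes, 0 passed the limma adjusted threshold and 11 had an unadjusted p under 0.05. All 3 Era+VK libraries were lower for 9 of them and higher for 5 (7.04% and 15.1% of all genes tested), and the median log2 difference was -0.03. The actins ACTG1 (975 and 871 FPKM) and ACTB (633 and 576 FPKM) and the actin cross-linker FLNA (428 and 392 FPKM) were lower in every Era+VK library, as VIM was. The 5 that were higher (named after their values were seen) were TUBB, TUBB4B, TUBB2A, TUBB3 and TUBB2B, while TUBB6, the other beta-tubulin of the list, was 85.3 FPKM in Era against 84.4 FPKM in Era+VK with groups that overlapped.

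Transcription factors of the epithelial and mesenchymal states did not pass either. Of 15 in the files, 6 were tested and 0 had an adjusted p under 0.05 (1 at an unadjusted p under 0.05), with a median log2 difference of 0.06. The most abundant were KLF5 (29.3 and 30.7 FPKM), SP1 (12.6 and 13.0 FPKM) and TWIST1 (7.32 and 7.59 FPKM). The epithelial splicing factors ESRP1 and ESRP2 reached at most 0.06 FPKM, and SNAI2 at most 0.08 FPKM.

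**Figure D5:**
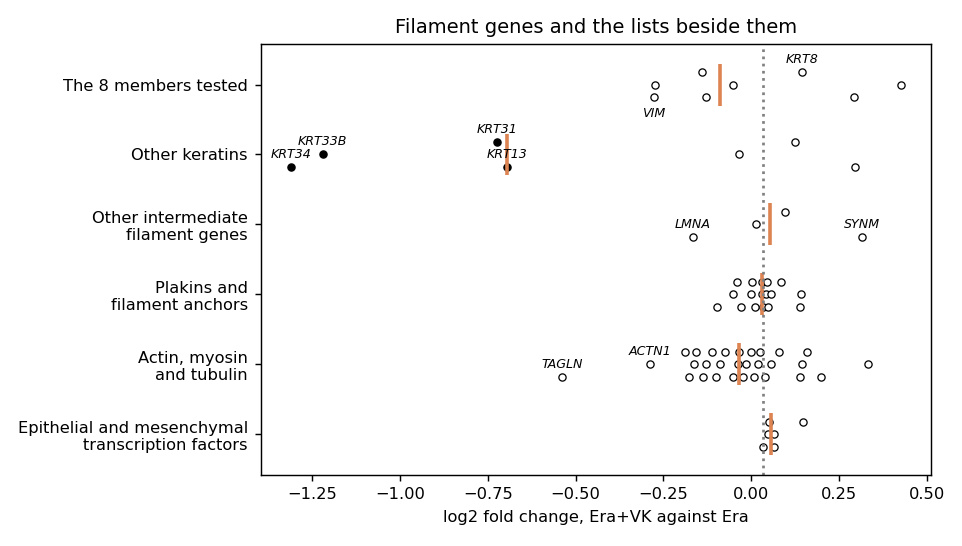
Log2 fold change (Era+VK against Era) of each gene tested in 6 sets, 1 point a gene, filled where the limma adjusted p is under 0.05; the orange line is the median of a set and the dotted line the median of all genes tested (0.03). The 4 filled points are KRT34, KRT33B, KRT31 and KRT13.

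Patterns across the 6 libraries were compared by Pearson's r of log2(FPKM + 1), as a description over 6 libraries that fall into the 2 groups. KRT7 was most alike to CDC42EP3 (0.991), RRAS2 (0.984) and FERMT2 (0.961), and KRT18 to GMPPA (0.986), RPL37AP1 (0.985) and RNF126 (0.977). The nearest to KRT80 were DEPP1 (0.99), CCDC47 (0.989) and FKBP11 (0.982). For KRT8 they were ZNF2 (0.994), EMC8 (0.993) and SYNPO (0.991), and for VIM MME (0.999), CBLB (0.999) and ARHGEF35 (0.995). Among the members, KRT7 with KRT18 had r = 0.944 and KRT7 with KRT80 r = 0.926, and Era replicate 3 was the highest library for all 3 genes, whereas KRT8 with KRT18 had r = -0.16.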

How the data were processed

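The authors deposited FPKM values per gene for 6 libraries (paired-end reads, Illumina NovaSeq). The submitters' processing notes name cutadapt, HISAT2 and StringTie 2.1.6, with no roles. They name a mouse build (mm10), whereas the gene identifiers are human, so the build behind the values is not settled, and positions given here are from GENCODE 29. The cell line field counts upward from library to library, and all titles name ARPE-19. Depth is unknown: of low values of single-exon genes, 32.1% to 37.3% lay within 0.1 of a whole multiple of the best step, where 20% of the range does, so reads could not be recovered.

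Genes whose mean reached 1 FPKM (11981 of 33496) were fitted with limma 3.58.1 (R 4.3.3; empirical Bayes with trend) on log2(FPKM + 1), without a term for replicate number, and adjusted by Benjamini-Hochberg over all of them. Fold changes on this scale understate those of low genes. The method was tested on simulated data. The genes described, the lists and the tests were chosen with earlier results of these data known. Named beside the members were list genes with an adjusted p under 0.05, otherwise at most 3 with the highest mean. For each member of at least 10 FPKM the 3 genes of highest r were also named. Outside this rule, further genes were named with their values known. Among them were SYNM, KRT10, KRT32, ZEB1, ESRP1, ESRP2, SNAI2, the beta-tubulins and further actin-related genes. Alternatives were another pseudocount (0.1), filters, scalings, a replicate block, no trend and each library left out. The coding sequences themselves are not reported here.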

Additional observations from a re-analysis of the deposited data

How the results depend on the processing

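The log2 differences of the 8 members tested kept their direction under every alternative in which each passed the filter, except that of KRT81, which was -0.42 without Era replicate 1 and up to 0.66 without another library. The difference of VIM was -0.28 when rescaled without mitochondrially encoded genes and -0.33 when scaled to the same median, both past the threshold, and it ranged from -0.30 to -0.26 when each library was left out in turn. The count of members past the threshold was then 1 (VIM) under either scaling and 0 to 1 over the left-out libraries. Groups of 2 members did not overlap when rescaled without mitochondrially encoded genes, and those of 0 members after quantile normalization, under which the VIM to KRT18 ratio differed by -2.01%. All genes past the threshold numbered 1 with no filter (0 of the 4 other keratins), 122 with at least 1 FPKM in every library, 112 after quantile normalization, 135 when scaled to the same median and 44 with no trend. They ranged from 2 to 71 over the left-out libraries: 3, 2 and 5 without Era replicates 1, 2 and 3, and 42 without Era+VK replicate 3. Non-overlapping genes ranged from 3608 to 4881 there, as fewer libraries overlap less; the cause of the other shifts was not tested.

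With the replicate number as a block (replicate block), 42 genes and 0 members passed (VIM adjusted p = 0.154), and of the 4 other keratins KRT33B and KRT34 passed. The main fit was planned without pairs. Deviations of same-numbered libraries correlated at 0.0709, 0.103 and 0.021, and those of unlike-numbered libraries at -0.114 to 0.0401. Whether the numbers mark pairs is not known. A comparison of 3 with 3 libraries limits what differences can be found, and with depth unknown no detection limit is given for NES, KRT19, KRT81 and KRT86. The KRT8 to KRT18 ratio and its alternatives were added after the data were seen (12.8% to 18.4% higher).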
